A study of Macaca fascicularis with 8 samples.

Results

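The genes described here are factors and target genes of the YAP-TEAD transcription machinery in embryonic stem cells (ESCs) of the cynomolgus monkey (Macaca fascicularis). Of 10 genes named, 9 had a row in the table of 33121 genes: the coactivators YAP1 and WWTR1, the DNA-binding factors TEAD1, TEAD2 and TEAD4, the kinase LATS2 and the target genes CCN1, CCN2 and ANKRD1. AMOTL2 was not analysed here. CCN1 and TEAD4 were found by the gene name in the table, and the other 7 by the protein named in the best match, at 85% identity or more. CCN2 and TEAD1 each had 2 such rows, and the row with the higher mean was used. No measured difference between the groups entered the choice of rows.

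The 8 libraries of polyadenylated RNA compared 4 of primed ESCs with 4 of dome-shaped ESCs. Primed cells formed flat colonies in CESM, a blend of the commercial PSGro human stem cell medium with conventional monkey ESC medium, and their passage as single cells was labelled weak. Dome-shaped cells grew in NHSMV medium, which contained human LIF (10 ng/ml), bFGF (8 ng/ml), TGF-β1 (1 ng/ml), insulin (12.5 µg/ml) and vitamin C (50 µg/ml), and their single-cell passage was labelled strong. The same medium held the MEK inhibitor PD0325901 (1 µM), the GSK3 inhibitor CHIR99021 (3 µM), the p38 inhibitors SB202190 (5 µM) and SB203580 (10 µM) and the JNK inhibitor SP600125 (10 µM). Medium, colony shape and passage label coincide with the group, so their parts in any difference cannot be told apart. The titles carry a number after CES, which primed replicates 3 and 4 share, as do dome-shaped replicates 1 and 2. It was 1, 2, 3 and 3 in primed replicates 1 to 4 and 1, 1, 2 and 3 in dome-shaped replicates 1 to 4. Primed replicate 4 and dome-shaped replicate 4 share a further tag that no other title carries. Dome-shaped replicates 1 and 2 differ in a further tag. The labels do not say what the number or the tags stand for. Nothing in the labels says that libraries came from separate cultures or animals, so p-values measure only the spread between these libraries, which may be technical.

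YAP1 and its paralogue WWTR1 (the protein TAZ) are coactivators that do not bind DNA themselves and act through the TEAD factors. In the Hippo pathway the kinases STK3 and STK4 activate LATS1 and LATS2, which phosphorylate YAP1 and TAZ and keep them out of the nucleus. Cell shape, actin tension and contact between cells regulate this step, and CCN1, CCN2 and ANKRD1 are widely used transcript readouts of active YAP1 and TAZ. LATS2 is itself a YAP-TEAD target. RNA levels do not report the phosphorylation or the location of these proteins.

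The RPKM values (read counts corrected for the length of the gene and the depth of the library) implied 14400020 to 18075200 reads per library. Dome-shaped replicate 4 stood apart from its group: on the first principal component of all tested genes (49.3% of the variance) the primed libraries lay between -37 and -28.6, dome-shaped replicates 1 to 3 between 40.7 and 41.1, and dome-shaped replicate 4 at 9.92. Summed RPKM of 10 pluripotency markers was 2883 to 3466 in primed libraries, 2010 to 2105 in dome-shaped replicates 1 to 3 and 2899 in replicate 4, so the ESC markers were present in every library. Results whose call or direction changed without that library are given both ways. All 9 genes passed the filter of at least 1 RPKM in at least 4 libraries.

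The target transcripts CCN1 and CCN2 were lower in 3 of the 4 dome-shaped libraries than in every primed library. The log2 fold changes of the 2 coactivators, LATS2 and the 3 TEAD genes among the members lay between -0.46 (TEAD4) and 0.19 (TEAD1). By limma on log2(RPKM + 1) with Benjamini-Hochberg adjustment over 15597 genes, 0 of the 9 genes passed the threshold of 0.05 in either direction. Of all genes tested, 14.3% passed, 6.38% higher and 7.96% lower in dome-shaped cells. CCN2, TEAD1 and TEAD4 were the 3 genes with an unadjusted p under 0.05. The share of all genes tested under that unadjusted cut is not given here. It cannot be below the 14.3% that passed after adjustment, so the 3 genes are not read as a result. The estimates were lower in dome-shaped cells for 7 genes and higher for LATS2 and TEAD1, with a median log2 fold change of -0.44 against 0.026 over all genes tested. Without dome-shaped replicate 4, CCN1 and CCN2 passed the test as lower, 2 of 9 genes where 9.24% of all genes passed in that direction, and the median was -0.14. CCN1, CCN2 and TEAD4 then had groups that did not overlap, 3 of 9 genes where 14.2% of all genes tested had groups that did not overlap in that direction. The library left out was the dome-shaped one whose CCN1 and CCN2 values lay within the primed range. With any other single library left out, neither CCN1 nor CCN2 passed.

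**Figure D1:**
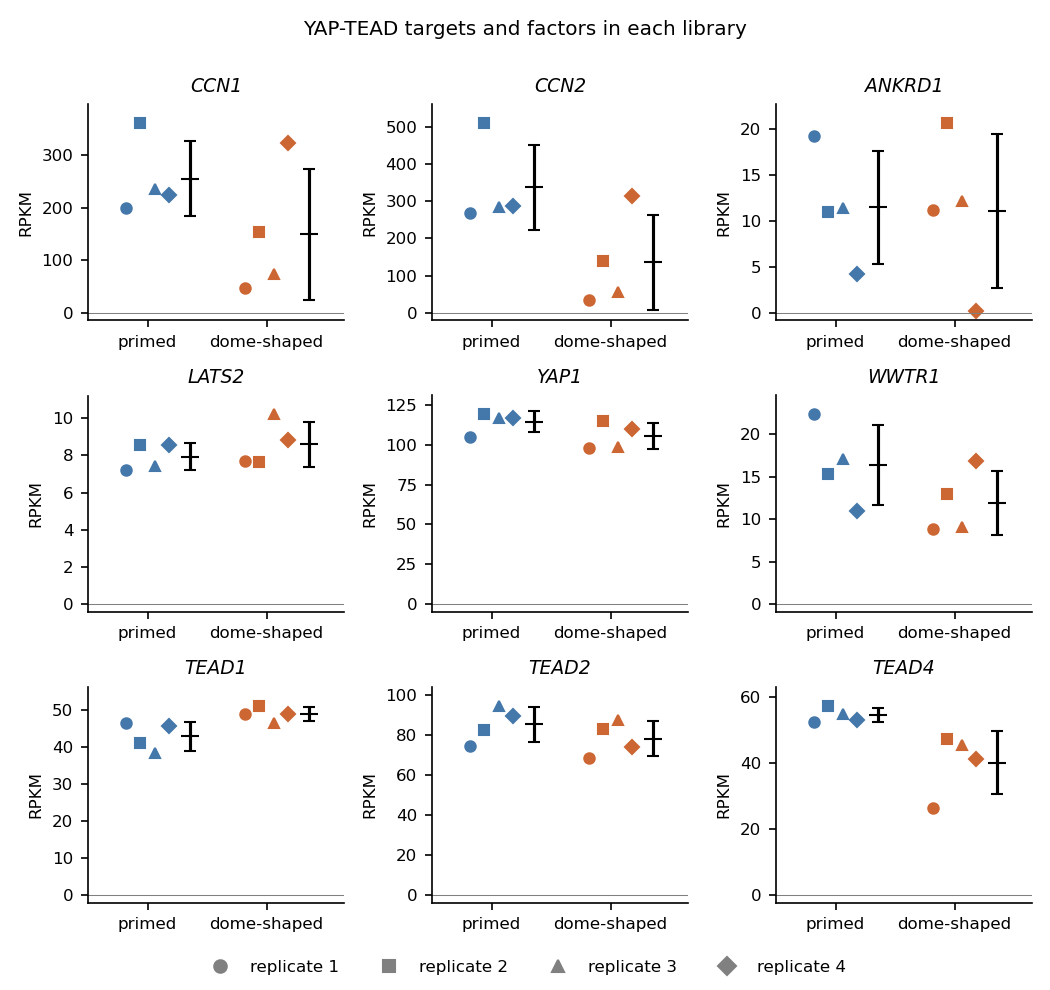
RPKM (vertical axes, linear, each with its own scale) of the 9 genes in 4 primed (blue) and 4 dome-shaped (orange) libraries; bars are the mean ± SD (n = 4), and the symbol gives the replicate. CCN1 and CCN2 of dome-shaped replicate 4 lie within the range of the primed libraries, and the TEAD4 points of the groups do not overlap.

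YAP1, the more abundant coactivator transcript, stood at 105, 119, 117 and 117 RPKM in primed replicates 1 to 4 and at 98.2, 115, 98.7 and 110 RPKM in dome-shaped replicates 1 to 4. The groups overlapped, since dome-shaped replicates 2 and 4 lay above the lowest primed library. The means were 115 ± 6.33 and 105 ± 8.35 RPKM (SD, n = 4 each), a log2 fold change of -0.12 with a standard error (SE) of 0.08 and a 95% interval from -0.29 to 0.05 (limma, adjusted p = 0.318).

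WWTR1 was measured at 22.3, 15.3, 17.1 and 10.9 RPKM in the primed libraries and at 8.8, 12.9, 9.08 and 16.8 RPKM in the dome-shaped libraries. Dome-shaped replicates 1 and 3 were below all primed libraries, and replicates 2 and 4 lay inside the primed range. The log2 fold change was -0.44 (SE 0.24, 95% interval -0.99 to 0.11, limma adjusted p = 0.254), and -0.61 without dome-shaped replicate 4 (adjusted p = 0.106). Since RPKM is scaled by length, the paralogues can be set side by side: WWTR1 made up 8.47% to 17.5% of the summed YAP1 and WWTR1 RPKM of primed libraries, and 8.23% to 13.2% of that of dome-shaped libraries. YAP1 thus held most of the coactivator RNA in all 8 libraries, and the sum was 127 to 134 RPKM in primed and 107 to 128 RPKM in dome-shaped libraries.

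Among the DNA-binding factors, TEAD4, a TEAD gene known for its part in trophectoderm formation in the mouse embryo, was the member whose groups did not overlap. It was measured at 52.6, 57.4, 54.9 and 53.2 RPKM in primed replicates 1 to 4 and at 26.5, 47.3, 45.5 and 41.4 RPKM in dome-shaped replicates 1 to 4. All dome-shaped libraries lay below all primed libraries, replicate 1 the farthest. This was 1 of 9 genes with groups that did not overlap, where 22.2% of all genes tested had such groups. The means were 54.5 ± 2.14 and 40.2 ± 9.46 RPKM (SD, n = 4 each), with a log2 fold change of -0.46 (SE 0.16, 95% interval -0.83 to -0.10) and an adjusted p of 0.0881 by limma. The exact permutation test over the 70 relabellings of the libraries gave a two-sided p of 0.0286, unadjusted, the smallest these groups allow. Every gene whose groups do not overlap gets this p, so it adds nothing to the separation already stated. Without dome-shaped replicate 1 the estimate was smaller, at -0.28, and passed the test (SE 0.07, limma adjusted p = 0.0432); 7.51% of all genes tested were then called lower.

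TEAD1 was at 46.5, 41.2, 38.4 and 45.9 RPKM in primed libraries and at 49.1, 51.3, 46.5 and 49 RPKM in dome-shaped libraries. Dome-shaped libraries were at or above the top of the primed range, and the groups met at 46.5 RPKM. The log2 fold change was 0.19 (SE 0.08, 95% interval 0.00 to 0.37), with an adjusted p of 0.155 by limma. TEAD2, the most abundant TEAD transcript, was at 74.6, 82.7, 94.6 and 89.3 RPKM in primed libraries and at 68.3, 83, 87.3 and 74.1 RPKM in dome-shaped libraries. These ranges overlapped over most of their length, and the log2 fold change was -0.13 (95% interval -0.36 to 0.11, limma adjusted p = 0.435).

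TEAD3, the remaining gene of the family and not among the 9, was lower in dome-shaped cells. Its values were 29.1, 36.4, 36.7 and 40.9 RPKM in primed and 14.5, 16.5, 16.4 and 20 RPKM in dome-shaped libraries, and the groups did not overlap. It fell by 1.04 on the log2 scale (SE 0.13, limma adjusted p = 0.00228), and by 1.12 without dome-shaped replicate 4 (adjusted p = 0.00117). Of all genes tested, 10.7% had groups that did not overlap in that direction. The 4 TEAD genes together summed to 203 to 229 RPKM in primed and 158 to 198 RPKM in dome-shaped libraries, with no overlap. TEAD3 and TEAD4, whose own groups did not overlap, are part of that sum, so it is no separate result. Within that sum TEAD3 held 14.4% to 17.9% in primed and 8.34% to 10.8% in dome-shaped libraries, and TEAD1 held 17.1% to 22.9% and 23.7% to 31%. TEAD2 kept the greatest share in each of the 8 libraries, from 36.8% to 44.6%. These shares are descriptions, with no test.

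**Figure D2:**
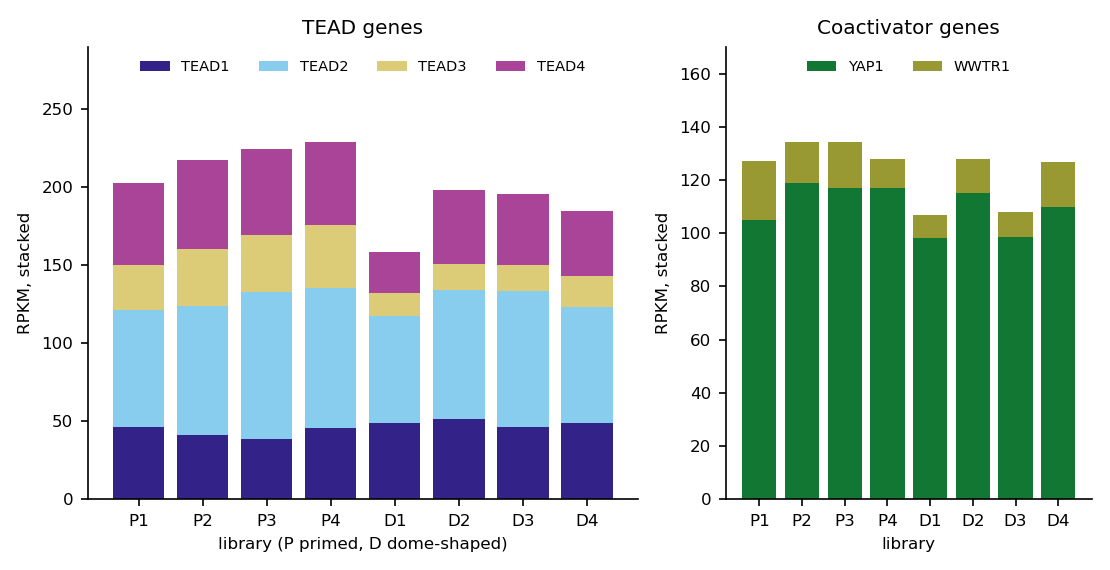
Stacked RPKM (vertical axes, linear from 0) of TEAD1 to TEAD4 (left) and of YAP1 and WWTR1 (right) in each of 4 primed (P1 to P4) and 4 dome-shaped (D1 to D4) libraries. The TEAD sum is 203 to 229 RPKM in primed and 158 to 198 RPKM in dome-shaped libraries, and the YAP1 and WWTR1 sums overlap.

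LATS2, the kinase that phosphorylates YAP1 and TAZ, was the member with the lowest mean RPKM in each group. It stood at 7.19, 8.57, 7.44 and 8.55 RPKM in primed and at 7.72, 7.63, 10.2 and 8.82 RPKM in dome-shaped libraries. The groups overlapped, and dome-shaped replicate 3 was the highest library. The log2 fold change was 0.10 (SE 0.13, 95% interval -0.19 to 0.38, limma adjusted p = 0.643). Without dome-shaped replicate 4 it was 0.08 (adjusted p = 0.719).

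CCN2, which encodes the matricellular protein CTGF, was the most abundant member in primed cells. It was measured at 268, 510, 284 and 288 RPKM in primed replicates 1 to 4 and at 33.3, 140, 57 and 315 RPKM in dome-shaped replicates 1 to 4. Dome-shaped replicates 1 to 3 were below every primed library, and replicate 4 lay among the primed libraries, so the groups overlapped. The means were 338 ± 115 and 136 ± 128 RPKM (SD, n = 4 each), a log2 fold change of -1.75 (SE 0.60, 95% interval -3.09 to -0.41) with an adjusted p of 0.0799 by limma. Without dome-shaped replicate 4 it fell by 2.32 on the log2 scale (95% interval -3.32 to -1.31, adjusted p = 0.0102). With any other single library left out, CCN2 did not pass (limma adjusted p 0.108 to 0.182). The second row matched to CCN2 is a gene model of the authors' own, and with both rows summed the log2 fold change over the 8 libraries was -1.80.

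CCN1, which encodes the related matricellular protein CYR61, was at 200, 360, 235 and 224 RPKM in primed and at 46.5, 154, 74 and 322 RPKM in dome-shaped libraries. The same library stood apart: dome-shaped replicates 1 to 3 lay below all primed libraries and replicate 4 above all but primed replicate 2. The means were 254 ± 71.6 and 149 ± 124 RPKM (SD, n = 4 each), a log2 fold change of -1.11 (SE 0.51, 95% interval -2.26 to 0.04, limma adjusted p = 0.172). Without dome-shaped replicate 4 it fell by 1.60 on the log2 scale (95% interval -2.45 to -0.76, adjusted p = 0.0213). With any other single library left out, CCN1 did not pass (limma adjusted p 0.197 to 0.333). In dome-shaped replicates 1 to 3 alone the mean was 91.3 ± 55.6 RPKM for CCN1 and 76.9 ± 56.2 RPKM for CCN2 (SD, n = 3), and replicate 2 was the highest of these for both genes.

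**Figure D3:**
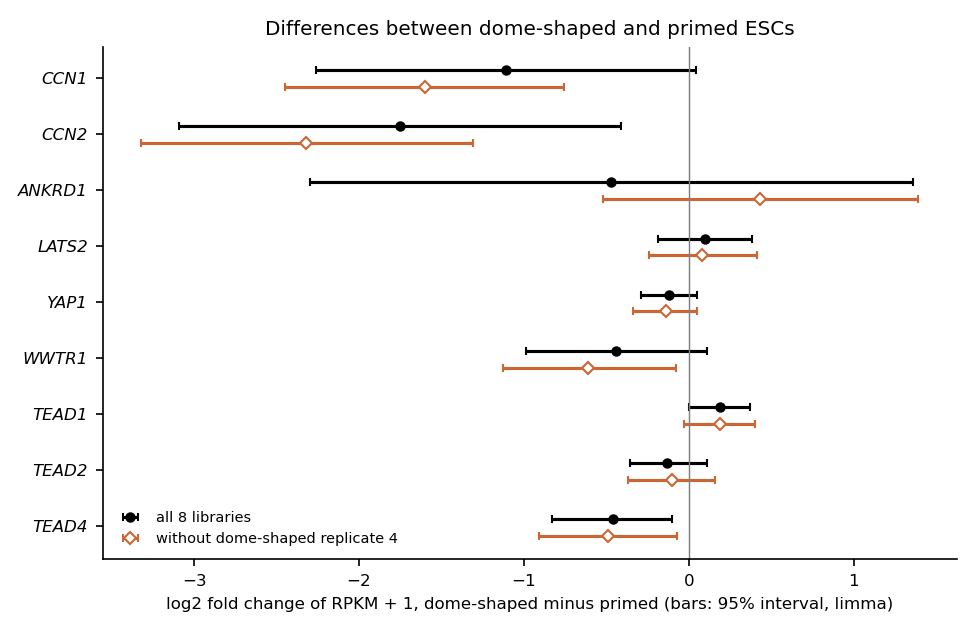
Log2 fold change of RPKM + 1, dome-shaped minus primed (horizontal axis), for the 9 genes with all 8 libraries (black) and without dome-shaped replicate 4 (orange, open); bars are 95% intervals from limma. CCN1 moves from -1.11 to -1.60 and CCN2 from -1.75 to -2.32 without that library, and ANKRD1 changes sign. The intervals of YAP1, LATS2, TEAD1 and TEAD2 are narrow. They cross 0, except that of TEAD1 with all 8 libraries, whose lower limit rounds to 0.00 and lies just above 0.

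The balance between the 2 CCN genes separated the groups in all libraries, dome-shaped replicate 4 included. The ratio of CCN2 to CCN1 RPKM was 1.34, 1.42, 1.21 and 1.29 in primed replicates 1 to 4 and 0.715, 0.914, 0.771 and 0.979 in dome-shaped replicates 1 to 4. Every primed library held more CCN2 than CCN1 and every dome-shaped library less. With both CCN2 rows summed, the ratio ranged from 1.67 to 1.91 in primed and from 0.936 to 1.32 in dome-shaped libraries, which still did not overlap, but no longer lay on either side of 1. The ratio was chosen after the values were seen and is given with no test.

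**Figure D4:**
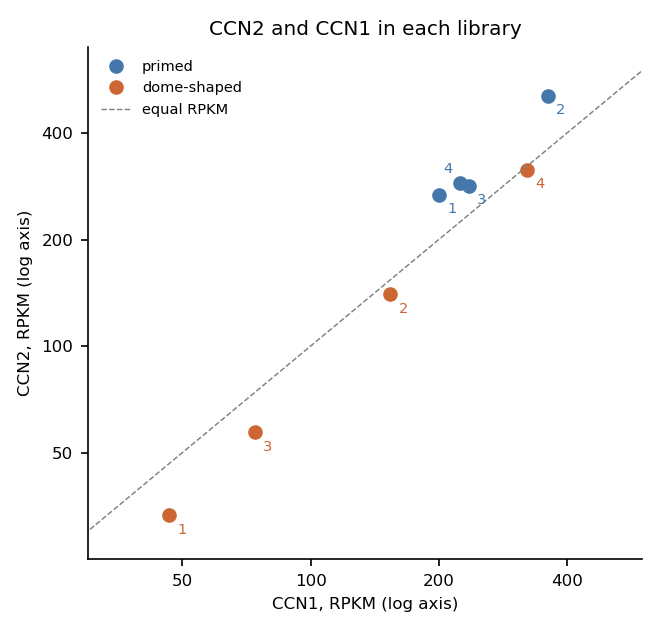
RPKM of CCN2 (vertical, log axis) against CCN1 (horizontal, log axis) in 4 primed (blue) and 4 dome-shaped (orange) libraries, with the replicate number beside each point and a dashed line where the 2 are equal. The 4 primed libraries lie above the line and the 4 dome-shaped libraries below it, replicate 4 the closest, at a ratio of 0.979.

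ANKRD1, which encodes an ankyrin repeat protein best known from muscle, was at 19.2, 11, 11.4 and 4.24 RPKM in primed and at 11.2, 20.6, 12.1 and 0.235 RPKM in dome-shaped libraries. Dome-shaped replicate 4, where CCN1 and CCN2 were high, had the lowest ANKRD1 value, from about 6 reads. Of the other dome-shaped libraries, replicates 1 and 3 lay within the primed range and replicate 2 just above it. The log2 fold change of -0.47 (SE 0.81, 95% interval -2.30 to 1.36, limma adjusted p = 0.728) rested on that library. Without it the sign turned, to 0.43 (95% interval -0.52 to 1.39, adjusted p = 0.506).

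The order of mean RPKM in primed cells was CCN2, CCN1, YAP1, TEAD2, TEAD4, TEAD1, WWTR1, ANKRD1 and LATS2. In dome-shaped cells CCN1 stood before CCN2 and TEAD1 before TEAD4, and the other ranks were the same. The places of CCN1 and CCN2 before YAP1, of CCN2 before TEAD2 and of WWTR1 before ANKRD1 rested on dome-shaped replicate 4. CCN1 stood before CCN2 and TEAD1 before TEAD4 without it too. In dome-shaped replicates 1 to 3 alone the highest means were those of YAP1 (104 RPKM), CCN1 (91.3 RPKM), TEAD2 (79.5 RPKM) and CCN2 (76.9 RPKM). TEAD1 (49 RPKM), TEAD4 (39.8 RPKM), ANKRD1 (14.6 RPKM), WWTR1 (10.2 RPKM) and LATS2 (8.51 RPKM) came after them. In dome-shaped libraries the ranges of CCN1 and CCN2 overlapped each other and those of YAP1, TEAD1, TEAD2 and TEAD4. The ranges of TEAD1 and TEAD4 overlapped there too. Within each of the 4 dome-shaped libraries, however, CCN1 was above CCN2 and TEAD1 above TEAD4. The ranges of CCN2 and CCN1 also overlapped in primed libraries, with CCN2 the higher within each library. Those of WWTR1, ANKRD1 and LATS2 overlapped in both groups, except that WWTR1 and LATS2 did not in primed libraries. The sources used here do not state which part of each transcript the deposited lengths cover, so orders between genes are approximate.

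The genes whose profile over the 8 libraries was most like that of each target were found by the root-mean-square difference of centred log2(RPKM + 1) values, among 8450 named genes. Since the choice used these same values, a gene near a target tends to share its difference between the groups and its outlying library. The p-values of these genes are thus no separate result. For CCN2 they were MYC, a growth-related transcription factor, at a difference of 0.25, THBS1, a matricellular protein, at 0.36 and KCNK1, a potassium channel, at 0.41. CCN2's own spread on that measure was 1.26. MYC was at 47.8, 63.8, 48.5 and 44.9 RPKM in primed and at 3.37, 25, 10.8 and 61.5 RPKM in dome-shaped libraries, with the same dome-shaped replicate among the primed values. KCNK1 passed the test over all libraries, with a log2 fold change of -1.86 (limma adjusted p = 0.015), but not when libraries with 1 number after CES were averaged (adjusted p = 0.0558). MYC had one of -1.61 (adjusted p = 0.135), and passed without dome-shaped replicate 4, at -2.23 (adjusted p = 0.0192).

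For CCN1, with a spread of 0.95, the nearest genes were THBS1 and the immediate early gene IER2, each at a difference of 0.31, and the prostaglandin receptor PTGER4 at 0.39. CCN2 itself lay at 0.35 from CCN1. THBS1 and IER2 had log2 fold changes of -1.34 and -1.16 (limma adjusted p = 0.169 and 0.0696), and of -1.92 and -1.56 without dome-shaped replicate 4 (adjusted p = 0.022 and 0.00417). PTGER4 had one of -0.70 (adjusted p = 0.226), and of -1.05 without that library (adjusted p = 0.027). For ANKRD1, with a spread of 1.25, the nearest genes were farther away: the apolipoprotein gene APOA1 at 0.76, the fibrillin gene FBN2 at 0.77 and the annexin gene ANXA1 at 0.81. FBN2 had a log2 fold change of 0.83 (limma adjusted p = 0.354), and of 1.50 without dome-shaped replicate 4 (adjusted p = 0.00461).

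Of 28 further genes of the Hippo kinase cascade and its regulators, 24 were tested, with a median log2 fold change of -0.06. Of these, 2 were higher and 4 lower in dome-shaped cells (limma adjusted p under 0.05), where 6.38% and 7.96% of all genes tested were. The 4 lower genes encode scaffold and junction proteins: PTPN14, a phosphatase-family protein that binds YAP1 (log2 fold change -0.67, adjusted p = 0.00726), DLG5 (-0.51, adjusted p = 0.0086), the LIM protein LIMD1 (-0.71, adjusted p = 0.01) and WWC1, also called KIBRA (-0.60, adjusted p = 0.013). PTPN14 was at 19.8 to 25.2 RPKM in primed and 11.9 to 15.5 RPKM in dome-shaped libraries, and none of the 4 lost its call when any 1 library was left out.

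The higher genes, named after their values were seen, were the protocadherin DCHS1 (0.83, limma adjusted p = 0.0189) and the casein kinase CSNK1D (0.30, adjusted p = 0.0489). The call for CSNK1D was lost without any of 7 single libraries (all but primed replicate 3; adjusted p 0.0559 to 0.13). That for DCHS1 was lost without dome-shaped replicate 2 or 3 or primed replicate 2 (adjusted p 0.0506 to 0.0577). FAT4, the partner of DCHS1, was below the filter, at 0.235 to 0.504 RPKM in primed and 0.98 to 2.41 RPKM in dome-shaped libraries. The core kinases did not pass the test: the log2 fold changes were 0.19 for STK3 and 0.05 for STK4, the upstream kinases, and -0.06 for LATS1 (limma adjusted p = 0.396, 0.731 and 0.73). TAOK2, TAOK3 and MAP4K4 were not analysed here.

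Of the other TEAD-binding cofactors, VGLL3 had a log2 fold change of 0.74 (limma adjusted p = 0.15), which passed the test without primed replicate 1, at 1.00 (adjusted p = 0.0477). VGLL4, which competes with YAP1 for TEAD, had one of -0.18 (adjusted p = 0.49). VGLL1 and VGLL2 were below the filter, at no more than 0.242 RPKM in any library.

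A list of 24 other YAP-TEAD targets gave 17 tested genes, of which 3 were called lower and 0 higher in dome-shaped cells. Of all genes tested, 7.96% were called lower and 6.38% higher. All 17 estimates were below 0, so none could be higher at any p. Their median log2 fold change was -0.48, against 0.026 over all genes tested. The share of all genes with an estimate below 0 is not given here. IGFBP3, a binding protein of insulin-like growth factors, was at 10.1, 26.2, 18.3 and 33.8 RPKM in primed and 3.06, 5.15, 3.31 and 8.26 RPKM in dome-shaped libraries, with no overlap. It fell by 1.92 on the log2 scale (SE 0.37, limma adjusted p = 0.0122). MYOF, a membrane protein of the ferlin family, fell by 1.09 (SE 0.23, adjusted p = 0.0175), a call lost without dome-shaped replicate 2 or primed replicate 2 or 4 (adjusted p 0.0504 to 0.0539).

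PTPN14 is the third gene, and AJUBA, at -0.36, did not pass (limma adjusted p = 0.0923). PTPN14, AJUBA and AMOTL1 stand in both this list and the kinase list. Without dome-shaped replicate 4, 5 genes of the list were lower, THBS1 and NUAK2 with them; NUAK2 then stood at -0.73 (adjusted p = 0.0357), against -0.55 over all libraries (adjusted p = 0.13). FOXF2, CCDC80, NT5E, RBMS3, BIRC5 and ITGB2 were below the filter, and TGFB2 was not analysed here. The row named BIRC5 may not be the main one of that gene, since protein matches gave the names.

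**Figure D5:**
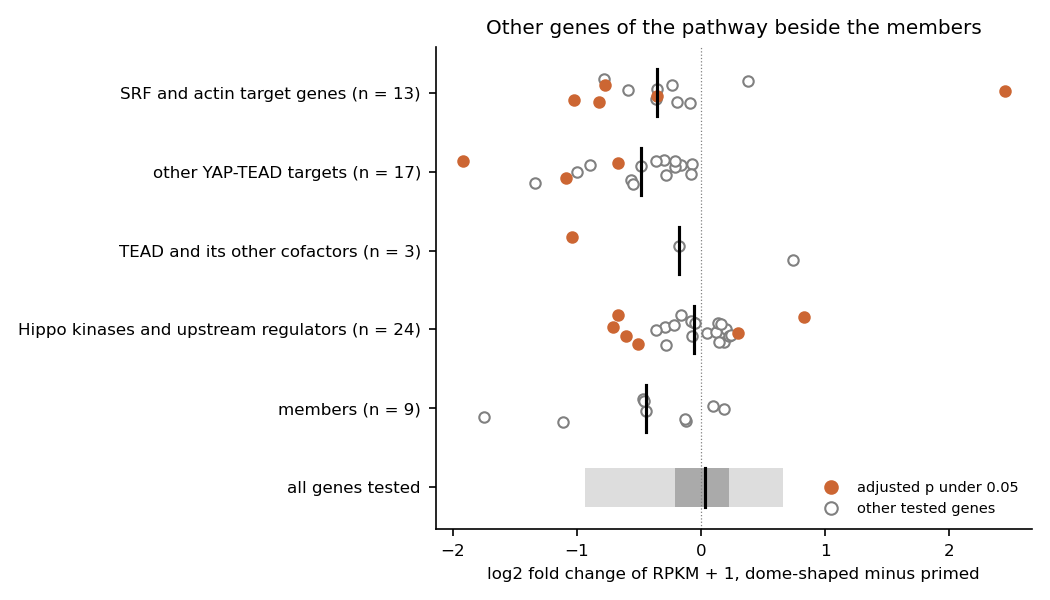
Log2 fold change of RPKM + 1, dome-shaped minus primed (horizontal axis), for each tested gene of the 4 lists and for the 9 genes described here (members); filled points have a limma adjusted p under 0.05, black lines are medians, and vertical scatter within a row has no meaning. For all 15597 genes the light bar spans the 5th to 95th and the dark bar the 25th to 75th percentile; the other YAP-TEAD targets have a median of -0.48 and no point above 0.

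CCN1, CCN2 and ANKRD1 are also targets of the serum response factor SRF, which responds to actin, so the genes of that programme are given beside them. Of 16 such genes 13 were tested: 4 were lower and 1 higher in dome-shaped cells, with a median log2 fold change of -0.35. The shares over all genes tested were 7.96% lower and 6.38% higher. CNN2, the actin-binding calponin 2, fell by 1.02 (limma adjusted p = 0.00722), from 258 to 349 RPKM in primed to 110 to 190 RPKM in dome-shaped libraries. ACTB, cytoplasmic beta-actin, fell by 0.35 (adjusted p = 0.0287) and ZYX, a focal adhesion protein, by 0.82 (adjusted p = 0.0408). VCL, the adhesion protein vinculin, named after its values were seen, fell by 0.77 (adjusted p = 0.0439).

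The CNN2 call held with any 1 library left out, and the other SRF calls did not. The ACTB call was lost without any of 4 single libraries, dome-shaped replicate 2 or primed replicates 2, 3 or 4 (limma adjusted p 0.0544 to 0.0779). ZYX lost its call without any of 5 single libraries, dome-shaped replicates 2 or 3 or primed replicates 1, 2 or 3 (adjusted p 0.0726 to 0.1). VCL lost it without any of 6, all but dome-shaped replicate 4 and primed replicate 4 (adjusted p 0.0614 to 0.106). SRF itself had a log2 fold change of -0.36 (limma adjusted p = 0.194), and without dome-shaped replicate 4 it passed, at -0.51 (adjusted p = 0.0488). FHL2, a LIM protein, also passed without that library, at -0.73 (adjusted p = 0.0192), against -0.59 with it (adjusted p = 0.0587), so that 6 genes of the list were then lower.

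ACTA2, smooth muscle actin, was the higher gene, at 2.96 to 5.32 RPKM in primed and 18.3, 82.2, 37.4 and 5.88 RPKM in dome-shaped replicates 1 to 4. Its log2 fold change was 2.45 (SE 0.63, limma adjusted p = 0.0333), and 3.08 without dome-shaped replicate 4 (adjusted p = 0.00312). That call was lost without any of 6 single libraries, namely dome-shaped replicates 1, 2 or 3 or primed replicates 2, 3 or 4 (adjusted p 0.0536 to 0.088). All 4 dome-shaped libraries were above all primed libraries, replicate 4 the least. MYL9, CNN1 and ACTG1 were not analysed here.

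Markers of cell types that express CCN1, CCN2 or ANKRD1 moved with the groups to different degrees. For the marker calls below, 6.38% of all genes tested were called higher and 7.96% lower in dome-shaped cells (limma adjusted p under 0.05). The 9 epithelial markers were all tested and all called lower. They summed to between 860 and 999 RPKM in primed libraries. In dome-shaped cells they summed to between 205 and 330 RPKM in replicates 1 to 3 and to 367 RPKM in replicate 4. The part of these markers in the CCN1 and CCN2 values was not tested. Of 10 fibroblast and feeder cell markers 8 had a row, and they summed to 25.9 to 68.4 RPKM in primed and 19.4 to 28.5 RPKM in dome-shaped libraries, with DCN, POSTN and FAP under 1 RPKM in every library. Of the 3 tested, PDGFRB was lower in dome-shaped cells (limma adjusted p = 0.0247). The 8 trophoblast markers, of which ELF5 and CGA were under 1 RPKM in every library, summed to 20.5 to 97 RPKM in primed and 5.34 to 11.5 RPKM in dome-shaped libraries. Of the 4 tested, KRT7 and HAND1 were lower. The 4 endothelial markers summed to 15.1 to 18.2 and 21.5 to 30.6 RPKM, and of the 3 tested TEK was higher (3.24, limma adjusted p = 0.00128) and KDR lower (-1.81, adjusted p = 0.00213). The 6 heart muscle markers, for ANKRD1, overlapped, at 89.9 to 164 and 77.2 to 171 RPKM, with MYH6 and NKX2-5 under 1 RPKM in every library. Of the 3 tested, TNNT2 was lower (-1.37, limma adjusted p = 0.00262). The part of the cell mixture in the differences was not tested, and in bulk RNA fewer cells of a type and less RNA per cell cannot be told apart.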

How the data were processed

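The authors deposited 1 table of RPKM values for the 8 libraries, with a query length and percent identity of protein matches per gene, per the file headers. Tools listed in the submitters' processing notes are HTSeq 0.6.1, TopHat2 2.0.9 and Bowtie2 2.0.6. Which genome build and annotation were used is not given in the sources used here. Of 33138 rows, 17 were blank and left out. The columns of other samples numbered 0. Symbols came from the table (4300 rows), from RefSeq accessions of the protein matches (7351, gene table of assembly T2T-MFA8v1.1), from names quoted in the matches (949) and from protein names paired by hand (21). Of the genes tested, 54.2% had a symbol.

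The 15597 genes that reached 1 RPKM in 4 libraries or more were compared as log2(RPKM + 1) with limma 3.58.1 in R 4.3.3 (lmFit, eBayes with a mean trend, two-sided, Benjamini-Hochberg adjustment). Fold changes on that scale understate those of low genes. The fit was tested on simulated data. Simulated libraries were independent and none was outlying, so that test cannot speak to dome-shaped replicate 4 or to libraries that share a number. RPKM multiplied by length came in steps of 1 read for 71.6% to 73.5% of values under 50 reads (within 0.01 of a whole read), so reads were not recovered for nearly all genes and no count test was run. The members and lists were chosen with earlier results of these data known, so list counts are descriptions. The genes named were the members, up to 4 genes with the smallest adjusted p of each of 4 lists, list genes below the filter, and the 3 genes most like each of CCN1, CCN2 and ANKRD1. The values of 1 list gene are not reported here. Alternatives were median-of-ratios scaling, quantile normalization, another pseudocount (0.1 or 0.5), a filter at a mean of 5 RPKM, no filter, no mean trend, a replicate block on the number after CES in the titles, libraries with 1 number averaged, and each library left out in turn.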

Additional observations from a re-analysis of the deposited data

Results flagged for a closer look

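In 3 of 86 groups of 4 libraries checked, 1 library lay far from the other 3 by Dixon's test at 95%; chance gives about 1 in 20. CCN2 stood at 510 RPKM in primed replicate 2, against 268 to 288 RPKM in the other primed libraries. YAP1 was lowest in primed replicate 1, at 105 RPKM against 117 to 119 RPKM. ANXA1, one of the genes nearest to ANKRD1, was at 12.4 RPKM in primed replicate 1, against 0.604 to 1.53 RPKM in the other primed libraries.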

How the results depend on the processing

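The other members (all but ANKRD1) kept the sign of their log2 fold change under every alternative run. Averaging the libraries with 1 number (3 against 3) gave 505 higher and 785 lower genes over the whole table, against 995 and 1242. With the replicate block there were 303 higher and 593 lower genes. Deviations from the group mean had correlations of -0.0975 to 0.125 over 5 same-numbered pairs of a primed and a dome-shaped library. Pairs with different numbers had -0.223 to 0.201. Deviations within a group sum to 0 over its 4 libraries, so these correlations cannot decide whether the numbers pair the libraries. The main fit did not use the numbers. Under the block, 0 of the 9 genes passed, WWC1 and MYOF lost their calls (adjusted p = 0.0503 and 0.0542), leaving 3 lower kinase and regulator genes and 2 lower other targets, 0 kinase and regulator genes were higher, and 0 actin and SRF genes were higher and 1 lower. With 1 library left out, higher genes ranged from 381 to 1289 and lower from 655 to 1441; of the 9 genes 0 to 2 were called lower. The log2 fold change then ranged from -1.60 to -0.68 for CCN1, -2.32 to -1.25 for CCN2, -0.94 to 0.43 for ANKRD1 (the sign turned without dome-shaped replicate 4) and -0.55 to -0.28 for TEAD4. Kinases and regulators called higher (2) numbered 1 with averaging, median-of-ratios scaling, quantile normalization, pseudocount 0.1 or no mean trend, 0 at a mean of 5 RPKM, and 0 to 2 with 1 library left out. Cofactors called higher (0) then numbered 0 to 1 and other targets called lower (3) numbered 2 to 5. Actin and SRF genes called higher (1) numbered 0 with averaging or no filter and 0 to 1 with 1 library left out, and those called lower (4) numbered 1 with no filter or no mean trend and 1 to 6. ANXA1 (0.19; -0.30 to 0.85 with 1 library left out) turned to -0.29 with averaging, -0.39 with the block, -0.30 without dome-shaped replicate 2 and -0.17 without primed replicate 4. APOA1 (0.25; -0.14 to 0.79) turned to -0.05, -0.10, -0.14 (without dome-shaped replicate 1) and -0.04 (without primed replicate 4). The cause was not tested in any of these.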

Other observations

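Primed replicate 1 differed from the other primed libraries in several actin and target genes, picked after their values were seen and given with no test. TAGLN, the actin-binding protein transgelin, stood at 1063 RPKM there against 302, 391 and 212 RPKM in primed replicates 2 to 4. CALD1, caldesmon, was at 653 RPKM against 243, 261 and 188 RPKM. CCN1 was lowest of the primed libraries in this replicate, at 200 RPKM, and CCN2 too, at 268 RPKM, so the CCN genes were not high in this library. NPPB, a natriuretic peptide, was highest in this replicate among the primed libraries, at 37.1 RPKM against 15.7, 25 and 7.88 RPKM in primed replicates 2 to 4.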
